A study of Homo sapiens with 6 samples.

Results

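Nuclear receptors are transcription factors that many cells use to read lipid-soluble signals such as steroids, retinoic acid, thyroid hormone, vitamin D, fatty acids and oxysterols. Most bind DNA through a pair of zinc fingers, often at copies of the core sequence AGGTCA, as homodimers or with a retinoid X receptor (RXR) as partner. Without an activating ligand several of them hold corepressor complexes on their targets, and with one they recruit coactivators. In luminal breast cancer cells the estrogen and progesterone receptors ESR1 and PGR are the best known of the family, and retinoic acid receptors, the vitamin D receptor and the glucocorticoid receptor also act on growth and differentiation there. The 43 nuclear receptor genes described here are other genes of the family, chosen by gene name from the 58735 genes of the count table. Earlier results of these data were known when they were chosen.

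RNA came from T47D, an established luminal breast cancer line of human origin that carries estrogen and progesterone receptors. The exposed group holds 3 libraries, titled CQ, and the control group holds 3, titled CK. The series title names fine particulate matter (PM2.5), and the protocol, worded alike for both groups, puts RNA extraction at 48 h. The design text itself speaks only of an experimental treatment, so "exposed" rests on the title and the protocol; dose and particle source: not given in the sources used here. One cell line was used, and the replicates are called biological without a statement that they were separate cultures, so p-values measure the spread between these samples.

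Total counts were 30970218 to 36878525 in exposed libraries, against 34696540 to 36024874 in control libraries. Luminal identity markers were detected in every library. GATA3, EPCAM and CDH1 did not pass the test, whereas the keratins KRT8, KRT18 and KRT19 fell together with ESR1 and PGR, so that 5 of 8 markers were lower. The summed level of the 8 markers was 7850 to 9873 CPM (counts-per-million units, scaled by library size) in exposed libraries, against 18890 to 20770 CPM in control libraries. Of 11 markers of immune, endothelial, stromal, basal and hepatic cells, only COL3A1 and PDGFRB were high enough to be tested, and neither passed. The sum of the 11 was 3.27 to 3.97 CPM in exposed and 3.21 to 3.83 CPM in control libraries, most of it COL3A1. The part of the lower keratin and hormone receptor levels in the results below was not tested.

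Of the 43 receptor genes, 38 had at least 1 count in some library and 32 had counts high enough for the test. By edgeR's quasi-likelihood test at a Benjamini-Hochberg adjusted p under 0.05 over all 17337 tested genes, 9 receptor genes were higher and 6 lower in exposed cells, and 17 did not pass. The 15 called members are 46.9% of the tested receptors, close to the 43.9% called among all tested genes, of which 21.8% were higher and 22.1% lower. A change of at least 1.5-fold was called for 6 members, or 18.8%, against 20.1% of all genes. The libraries of the groups did not overlap for 17 members, or 53.1%, against 51.9% of all genes. The median log2 fold change of the tested receptor genes was 0.04, against -0.02 over all tested genes, and the median size of the change was 0.37 against 0.33. As a family the receptors thus changed about as often and as much as other genes, and the account below is of which ones changed. In bulk RNA, fewer cells of a kind and less RNA per cell cannot be told apart.

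**Figure D1:**
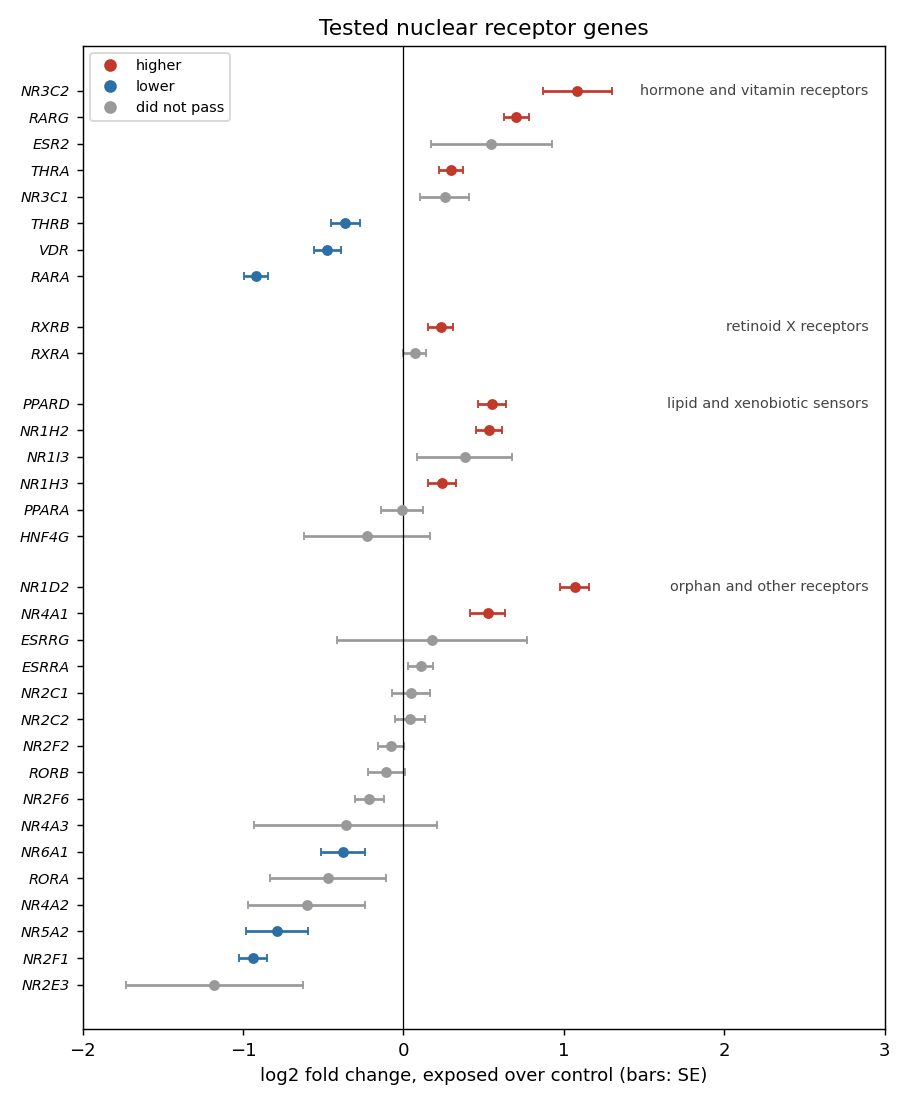
Log2 fold changes (exposed over control, bars are standard errors) of the 32 tested receptor genes, ordered within 4 classes. Among hormone and vitamin receptors the called genes lie on both sides of 0, while all 3 called lipid sensors lie to the right.

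The highest receptor transcripts, compared per length as CPM per kilobase, belonged to orphan receptors. NR2F6, a COUP-TF family repressor, led with 53.8 ± 3.52 in exposed cells and 62.4 ± 9.82 in control cells (SD, n = 3 each). ESRRA, the estrogen-related receptor of energy metabolism, followed with 53.8 ± 2.63 in exposed cells and 49.9 ± 4.05 in control cells. NR1H2, the widely expressed liver X receptor, had 34.4 ± 1.68 in exposed cells and 23.8 ± 2.52 in control cells. RARG, RARA, RXRB, RXRA, THRA and NR2F1 came next, with means over all libraries of 11.2 to 28.98. NR1H2, RARG and RARA lay close together over the 6 libraries, at 29.1, 28.98 and 28.7, although RARG was above RARA in every exposed library and below it in every control library. The sum over all 43 genes was 344.5, 333.9 and 328.2 in exposed libraries, against 309.2, 347.1 and 320.8 in control libraries. The groups thus overlapped in this sum, which leaves out the lower ESR1 and PGR.

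**Figure D2:**
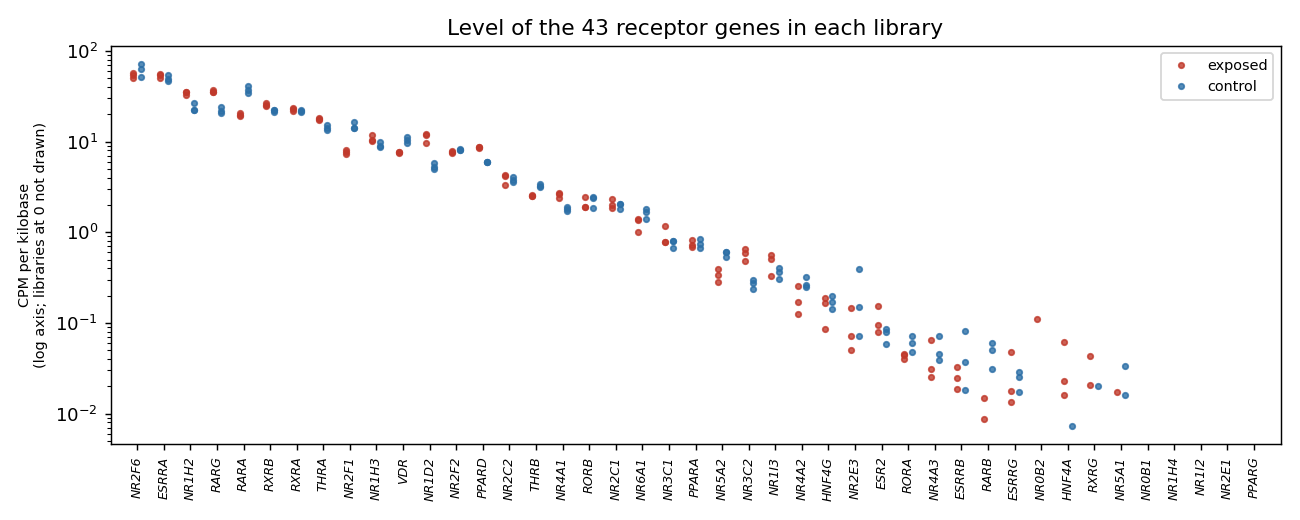
CPM per kilobase (log axis) of the 43 receptor genes in each of 3 exposed and 3 control libraries, ordered by mean level, with values of 0 not drawn. Levels span from above 50 for NR2F6 and ESRRA down to 5 genes with no point at all.

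The retinoic acid receptors showed opposite changes in RARA and RARG, both receptors for all-trans retinoic acid. RARA (ENSG00000131759, GRCh38 chr17:40309192-40357643, plus strand) had 97.8, 92.6 and 91.5 CPM in exposed libraries, against 176, 193 and 164 CPM in control libraries. Every exposed library lay below every control library. The log2 fold change was -0.92 ± 0.08 (SE), 1.89-fold lower in exposed cells, with an adjusted p of 1.7e-11 by edgeR's quasi-likelihood test. RARG (ENSG00000172819, chr12:53210567-53232980, minus strand) had 192, 181 and 179.6 CPM in exposed libraries, against 105, 123 and 112 CPM in control libraries. All exposed libraries were above all control libraries, with a log2 fold change of 0.70 ± 0.08, or 1.63-fold (adjusted p = 4.6e-09). RARB, itself a well-known retinoic acid target, was too low to test, with 0, 1 and 2 counts in exposed libraries and 7, 4 and 8 in control libraries. Those counts do not overlap, and with no low-count filter its adjusted p was 0.18.

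Summed per length, the 3 retinoic acid receptor genes reached 55.8 ± 1.97 in exposed cells and 59.7 ± 4.53 in control cells (SD, n = 3 each), with overlapping libraries. The larger share belonged to RARG in exposed cells and to RARA in control cells. RARA made up 35.6%, 35.7% and 35.6% of it in exposed libraries, against 64.6%, 62.9% and 61.4% in control libraries. RARG made up 64.4%, 64.3% and 64.4% in exposed libraries, against 35.3%, 37.1% and 38.5% in control libraries. These shares were formed after the values had been seen and were not tested. A short stretch of RARA exons, 11.8%, is also covered by the opposite-strand gene RARA-AS1, which held 115 counts over all libraries against 28738 for RARA. Another opposite-strand gene, AC080112.3, covers 6.2% of the RARA exons and held 298 counts.

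**Figure D3:**
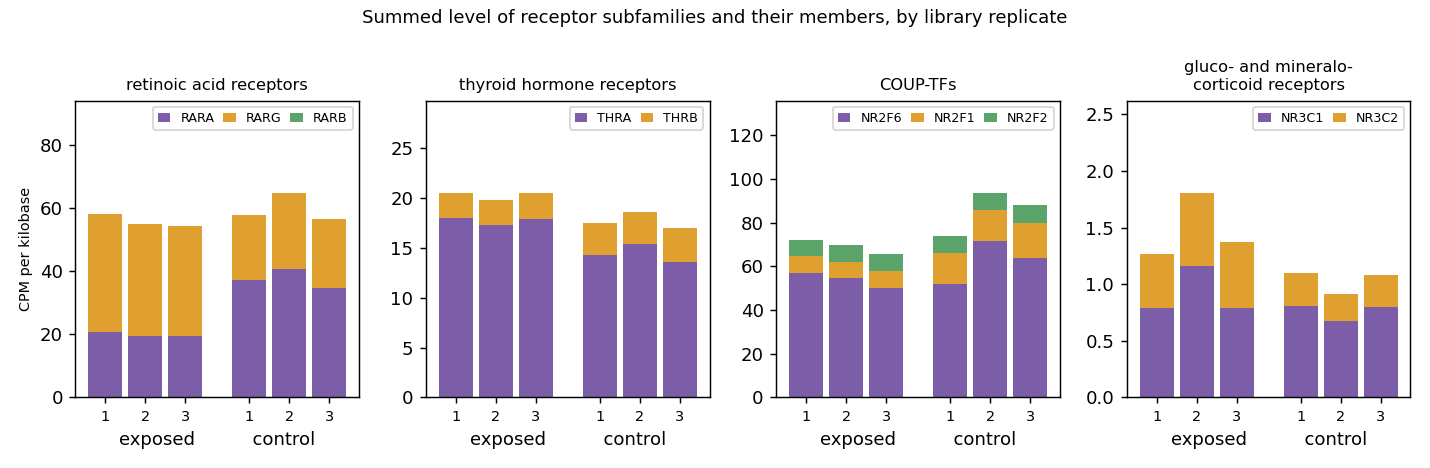
Stacked CPM per kilobase of 4 receptor subfamilies in the 3 exposed and 3 control libraries (RARB is too low to be seen). In the retinoic acid receptor panel the RARA segment is the smaller one in all exposed libraries and the larger one in all control libraries, at similar totals.

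RefSeq windows of 300 bases around annotated starts (GRCh38.p14, 250 bases before and 50 after, printed on the gene's strand) are shown for the retinoic acid receptors because these genes changed in opposite directions. Each was searched on both strands for GCGTG, the core bound by the aryl hydrocarbon receptor (AhR), for the antioxidant element TGACNNNGC, for TGATGCAA, an ATF4 element, and for the receptor core sequence AGGTCA. The E-box CACGTG and the D-box TTATGTAA, both used by clock factors, were added after the sequences had been seen. Capitals mark matches, and offsets give the first base of a match, with 0 at the start base. RARA has 3 such windows on the plus strand, and the 2 that hold a match are printed, at chr17:40308930-40309229 and chr17:40317995-40318294; the third, chr17:40341916-40342215, holds none of the motifs. The RARG window lies at chr12:53232160-53232459 on the minus strand.
RARA upstream start: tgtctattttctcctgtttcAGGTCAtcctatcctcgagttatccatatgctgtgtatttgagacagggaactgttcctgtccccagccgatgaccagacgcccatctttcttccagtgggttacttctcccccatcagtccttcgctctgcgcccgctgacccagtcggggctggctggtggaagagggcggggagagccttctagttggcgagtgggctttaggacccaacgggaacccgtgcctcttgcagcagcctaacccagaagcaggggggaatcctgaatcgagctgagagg
RARA second start: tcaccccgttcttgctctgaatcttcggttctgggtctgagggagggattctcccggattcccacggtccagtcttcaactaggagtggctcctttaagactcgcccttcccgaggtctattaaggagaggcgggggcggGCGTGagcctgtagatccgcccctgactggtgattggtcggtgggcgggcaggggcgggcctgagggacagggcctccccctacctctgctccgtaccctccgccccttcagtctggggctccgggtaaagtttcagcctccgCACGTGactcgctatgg
RARG: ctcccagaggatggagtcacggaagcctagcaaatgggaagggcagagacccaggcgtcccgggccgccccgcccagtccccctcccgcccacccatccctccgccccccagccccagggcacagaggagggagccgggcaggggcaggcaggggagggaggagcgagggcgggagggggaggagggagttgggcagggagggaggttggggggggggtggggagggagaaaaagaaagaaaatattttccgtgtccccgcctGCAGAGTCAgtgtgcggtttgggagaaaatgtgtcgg
The upstream RARA window holds AGGTCA at -230, and the second holds GCGTG at -110 and CACGTG at 33. In the RARG window the antioxidant element is present at 13 as the reverse complement. GCGTG was found in 36.5% of all 35116 windows, AGGTCA in 13.8%, TGACNNNGC in 13.3% and CACGTG in 7.26%. Among 86 windows of 38 receptor genes the shares were 39.5%, 18.6%, 18.6% and 8.14% in the same order. Windows of the same gene can overlap and hold the same match, as for ESR2 and PPARG, so these are not shares of separate promoters. A match describes the letters only and is no evidence of binding.

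Among the other hormone and vitamin receptors, NR3C2 and THRA were higher while VDR and THRB were lower. NR3C2 (ENSG00000151623, chr4:148078762-148444698), the mineralocorticoid receptor, had 3.18, 4.30 and 3.88 CPM in exposed libraries, against 1.96, 1.56 and 1.84 CPM in control libraries. Exposed libraries were all higher, with a log2 fold change of 1.08 ± 0.21, or 2.12-fold (adjusted p = 1.2e-04, edgeR's quasi-likelihood test). It rests on 54 to 140 counts per library and has a wider error than the other called hormone receptors. NR3C1, the glucocorticoid receptor, had 7.24, 10.6 and 7.24 CPM in exposed libraries and 7.37, 6.22 and 7.35 CPM in control libraries. The groups overlapped, since only exposed replicate 2 stood above all controls, and NR3C1 did not pass (log2 fold change 0.26 ± 0.15, adjusted p = 0.18).

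VDR, the receptor for the active form of vitamin D, fell to 43.02, 41.9 and 43.04 CPM in exposed libraries, against 59.3, 55.3 and 63.3 CPM in control libraries. The log2 fold change was -0.48 ± 0.08 (adjusted p = 2.1e-05). The thyroid hormone receptors moved apart. THRA had 125, 120.2 and 124 CPM in exposed libraries and 99.3, 107 and 94.3 CPM in control libraries (log2 fold change 0.30 ± 0.08, adjusted p = 0.0016 by edgeR). THRB had 27.8, 27.8 and 28.0 CPM in exposed libraries and 35.6, 34.5 and 37.6 CPM in control libraries (log2 fold change -0.36 ± 0.09, adjusted p = 0.0013 by edgeR). Libraries of the groups did not overlap for either gene, and THRA made up 87.4% ± 0.219 of their sum per length in exposed cells and 81.5% ± 1.61 in control cells. Another gene covers 3.8% of THRA exons from the opposite strand. ESR2, estrogen receptor beta, had 30, 45 and 27 counts in exposed and 30, 19 and 27 in control libraries, which overlap, and did not pass (adjusted p = 0.25).

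**Figure D4:**
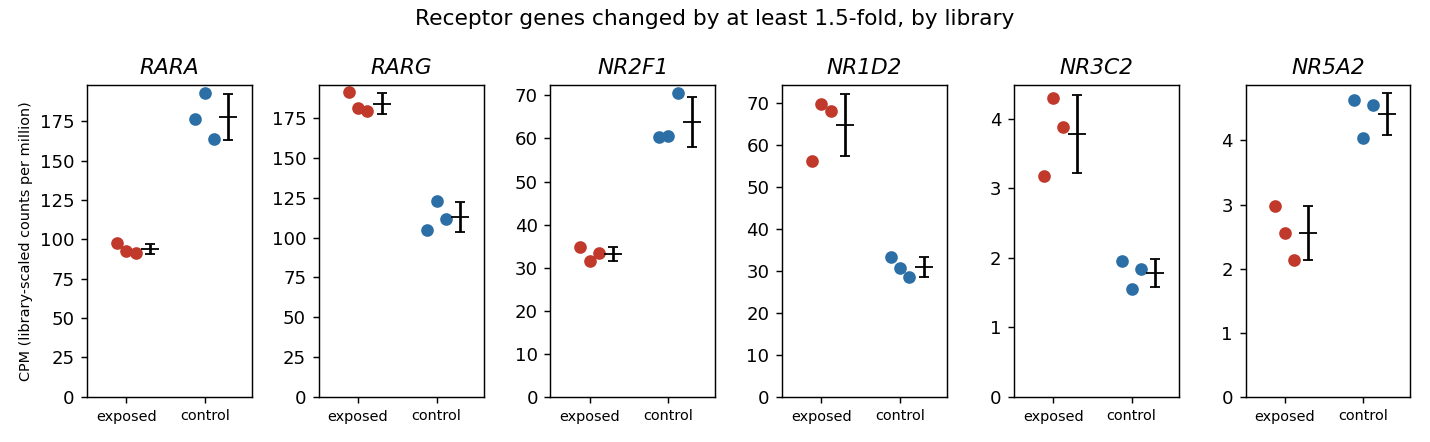
CPM of the 6 receptor genes that passed the test with at least a 1.5-fold change, in 3 exposed and 3 control libraries, with the mean and SD beside the points. In every panel all exposed points lie on one side of all control points: below for RARA, NR2F1 and NR5A2, above for RARG, NR1D2 and NR3C2.

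The retinoid X receptors, common partners of the receptors above and of the lipid sensors, were represented by RXRA and RXRB, of which RXRB passed. RXRA had 261, 241 and 253 CPM in exposed libraries and 246, 241 and 232 CPM in control libraries, which overlap, and it did not pass (log2 fold change 0.07 ± 0.07, adjusted p = 0.46). RXRB had 105, 99.3 and 97.5 CPM in exposed libraries, against 86.5, 88.3 and 82.5 CPM in control libraries. Its groups did not overlap, and its log2 fold change was 0.23 ± 0.08 (adjusted p = 0.013, edgeR's quasi-likelihood test). Without exposed replicate 1 or control replicate 3 the adjusted p of RXRB was 0.058 or 0.077. The opposite-strand gene SLC39A7 covers 6.2% of the RXRB exons and held 62520 counts against 19464. RXRG had 4, 0 and 2 counts in exposed libraries and 0, 0 and 2 in control libraries.

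The lipid sensors PPARD, NR1H2 and NR1H3 rose, and the other 3 of the 6 tested did not pass. NR1H2, a liver X receptor that binds oxysterols, had 132, 122 and 133 CPM in exposed libraries, against 83.3, 100.1 and 84.3 CPM in control libraries. All exposed libraries were higher, with a log2 fold change of 0.53 ± 0.08 (adjusted p = 2.2e-06, edgeR's quasi-likelihood test). PPARD, a receptor for fatty acids, had 39.1, 39.0 and 37.8 CPM in exposed libraries and 26.4, 26.5 and 26.2 CPM in control libraries. The replicates of PPARD were very close within each group, and its log2 fold change was 0.55 ± 0.09 (adjusted p = 6.1e-06). NR1H3, the other liver X receptor, had 53.1, 46.4 and 47.3 CPM in exposed libraries and 40.4, 44.7 and 39.0 CPM in control libraries. Its change was small (log2 fold change 0.24 ± 0.09, adjusted p = 0.025) and did not pass without exposed replicate 1, control replicate 1 or control replicate 3, where adjusted p by edgeR was 0.14, 0.072 and 0.13. Per length the liver X receptor pair summed to 45.2 ± 2.23 in exposed cells and 32.9 ± 3.15 in control cells, and NR1H2 was 76.1% ± 1.11 of that sum in exposed cells and 72.2% ± 0.837 in control cells. The opposite-strand gene ACP2 covers 4.2% of the NR1H3 exons and held 11830 counts against 9429.

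PPARA, the PPAR of fatty acid oxidation, averaged 9.91 ± 0.970 CPM in exposed cells and 9.97 ± 1.21 CPM in control cells (SD, n = 3 each) and did not pass (adjusted p = 0.95). NR1I3, the xenobiotic receptor CAR, averaged 1.55 ± 0.410 CPM in exposed cells and 1.19 ± 0.163 CPM in control cells and did not pass. HNF4G averaged 0.707 ± 0.260 CPM in exposed cells and 0.826 ± 0.137 CPM in control cells and did not pass either. The opposite-strand gene TOMM40L covers 20.0% of the NR1I3 exons and held 7209 counts against 285. HNF4A, a regulator of hepatic and intestinal genes, was too low for the test, with 4, 14 and 6 counts in exposed libraries and 2, 0 and 0 in control libraries. With no low-count filter its adjusted p by edgeR was 0.025. PPARG, the adipocyte PPAR, NR1H4, the bile acid receptor FXR, and NR1I2, the xenobiotic receptor PXR, had 0 counts in all 6 libraries. A count of 0 allows up to 3 counts per library, or at most 0.0804 to 0.0969 CPM, for counting error only.

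NR1D2 and NR4A1 were the 2 orphan receptors that were higher. NR1D2 (ENSG00000174738, chr3:23945260-23980618, plus strand) encodes REV-ERB beta, a heme-binding repressor that shares its DNA sites with the activating ROR receptors and takes part in the circadian clock. It had 56.4, 70.0 and 68.2 CPM in exposed libraries, against 33.4, 30.7 and 28.7 CPM in control libraries. Every exposed library was higher, exposed replicate 1 the least so, and the log2 fold change was 1.07 ± 0.09, or 2.10-fold (adjusted p = 4.0e-11, edgeR's quasi-likelihood test). NR4A1, an immediate early orphan receptor, had 19.2, 17.5 and 19.9 CPM in exposed libraries and 13.8, 13.1 and 12.4 CPM in control libraries. Its groups did not overlap (log2 fold change 0.53 ± 0.11, adjusted p = 2.0e-04). Its relatives were low: NR4A2 averaged 0.726 ± 0.254 CPM in exposed and 1.10 ± 0.162 CPM in control cells, and NR4A3 averaged 0.256 ± 0.136 CPM in exposed and 0.330 ± 0.110 CPM in control cells. Neither passed.

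NR2F1, NR5A2 and NR6A1 were lower. NR2F1 (ENSG00000175745, chr5:93583224-93594615, plus strand), the COUP-TF I regulator of cell fate, had 34.8, 31.5 and 33.3 CPM in exposed libraries, against 60.3, 60.5 and 70.5 CPM in control libraries. All exposed libraries were lower, with a log2 fold change of -0.94 ± 0.09, or 1.92-fold (adjusted p = 1.9e-10, edgeR's quasi-likelihood test). NR5A2 (ENSG00000116833, chr1:200027602-200177424), known as LRH-1 and linked to cholesterol and steroid metabolism, had 2.97, 2.55 and 2.14 CPM in exposed libraries, against 4.64, 4.03 and 4.56 CPM in control libraries. Exposed libraries were again all lower (log2 fold change -0.79 ± 0.19, 1.73-fold, adjusted p = 0.0013), on 77 to 173 counts per library. NR6A1, germ cell nuclear factor, had 9.72, 10.01 and 7.13 CPM in exposed libraries and 12.8, 11.98 and 10.01 CPM in control libraries, and exposed replicate 2 and control replicate 3 nearly met. Its log2 fold change was -0.38 ± 0.14 (adjusted p = 0.027, edgeR), and it did not pass without exposed replicate 3, control replicate 1 or control replicate 2, where the adjusted p was 0.25, 0.13 and 0.054.

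The other COUP-TF genes did not follow NR2F1 past the threshold. NR2F2, the COUP-TF II gene, had 47.9, 49.7 and 51.3 CPM in exposed libraries and 51.7, 52.6 and 52.9 CPM in control libraries. Those libraries did not overlap, but the change was small (log2 fold change -0.08 ± 0.08, adjusted p = 0.46, edgeR's quasi-likelihood test). NR2F6 had 152, 147 and 134 CPM in exposed libraries and 139, 191 and 170.2 CPM in control libraries, which overlap because control replicate 1 was low. Its log2 fold change was -0.21 ± 0.09 (adjusted p = 0.053), and without control replicate 1 or exposed replicate 1 it passed as lower (adjusted p = 0.0021 and 0.045). Together the COUP-TF genes summed per length to 69.2 ± 3.36 in exposed cells and 85.3 ± 10.2 in control cells, and NR2F1 was 11.1% ± 0.661 of that sum in exposed cells and 17.5% ± 2.17 in control cells. NR2F1-AS1 covers 3.7% of the NR2F1 exons from the opposite strand and held 787 counts against 10282.

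Start windows of NR1D2 (chr3:23945871-23946170) and NR2F1 (chr5:93582972-93583271), both on the plus strand of GRCh38.p14 and from RefSeq, are printed because they belong to the orphan receptors with the largest called rise and fall.
NR1D2: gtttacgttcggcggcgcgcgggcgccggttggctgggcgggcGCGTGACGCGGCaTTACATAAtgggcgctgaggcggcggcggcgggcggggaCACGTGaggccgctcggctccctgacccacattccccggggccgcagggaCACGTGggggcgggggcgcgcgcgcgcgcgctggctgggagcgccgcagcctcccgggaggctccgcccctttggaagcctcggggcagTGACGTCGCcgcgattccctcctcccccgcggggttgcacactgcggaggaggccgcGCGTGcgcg
NR2F1: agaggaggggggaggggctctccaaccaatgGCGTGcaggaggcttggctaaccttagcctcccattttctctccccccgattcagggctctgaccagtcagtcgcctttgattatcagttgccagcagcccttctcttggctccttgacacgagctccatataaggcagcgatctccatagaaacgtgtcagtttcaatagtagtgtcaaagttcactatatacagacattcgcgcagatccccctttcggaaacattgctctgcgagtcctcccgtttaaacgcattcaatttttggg
The NR1D2 window holds 2 copies of CACGTG, at -155 and -105, and a D-box in reverse complement at -194. It also holds GCGTG at -207 and 41 and TGACNNNGC at -204 and -16, where the first copies of these motifs overlap. The D-box was found in 0.886% of all windows. In the NR2F1 window the only match was GCGTG, at -219. Each gene has a further window, chr3:23945036-23945335 for NR1D2 and chr5:93586849-93587148 for NR2F1, which holds none of the motifs and is not printed.

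The remaining tested orphan receptors did not pass. ESRRA had 169, 165 and 154 CPM in exposed libraries and 141, 165 and 149 CPM in control libraries (log2 fold change 0.11 ± 0.08, adjusted p = 0.27, edgeR). Without control replicate 2, the highest control, it passed at an adjusted p of 0.046. The opposite-strand gene TRMT112 covers 9.4% of the ESRRA exons and held 87361 counts against 32791. NR2C1 and NR2C2, the testicular receptors, RORB, RORA, ESRRG and NR4A3 had adjusted p from 0.31 to 0.83, and MRPS25 covers 10.1% of the NR2C2 exons from the opposite strand. RORA groups did not overlap, with 23, 24 and 27 counts in exposed and 38, 42 and 30 in control libraries. NR2E3, the photoreceptor-specific receptor, had 8, 5 and 17 counts in exposed libraries and 18, 8 and 47 in control libraries, where control replicate 3 stood alone. Its log2 fold change was -1.18 ± 0.55 and did not pass (adjusted p = 0.084, edgeR). Without control replicate 3 the log2 fold change of NR2E3 was -0.29 (adjusted p = 0.78). It passed when control replicate 2 was left out (adjusted p = 0.017, edgeR) and when exposed replicate 3 was (0.036).

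ESRRB, NR5A1 and NR0B2 were counted but not tested. ESRRB had 5, 6 and 4 counts in exposed libraries and 4, 17 and 8 in control libraries, which overlap. NR5A1, the steroidogenic factor SF-1, had 2, 0 and 0 counts in exposed and 0, 4 and 2 in control libraries. NR0B2, the corepressor-like receptor SHP, had 4 counts in exposed replicate 2 and 0 in the other libraries. NR2E1, a neural stem cell receptor, and NR0B1, the adrenal repressor DAX-1, had 0 counts in every library.

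Receptors act through coactivators and corepressors, counted here from lists of known names. Of 15 tested coactivator genes 5 were higher and 1 lower, with a median log2 fold change of 0.17. Among all tested genes 21.8% were higher and 22.1% lower, with a median of -0.02. PPARGC1A, the PGC-1 alpha coactivator of mitochondrial genes, had 7.72, 10.3 and 9.07 CPM in exposed libraries, against 2.948, 2.62 and 1.62 CPM in control libraries. All exposed libraries were higher (log2 fold change 1.91 ± 0.19, adjusted p = 5.1e-10, edgeR's quasi-likelihood test). PPARGC1B, NCOA7 and NCOA6 were higher by log2 fold changes of 0.83, 0.84 and 0.52. Of 11 corepressor genes 1 was higher, TBL1X at 0.36, and 3 were lower, against those shares of 21.8% and 22.1%, with a median of -0.10. NRIP1, a corepressor induced by estrogen, had 26.9, 32.9 and 25.3 CPM in exposed libraries, against 55.2, 48.0 and 50.3 CPM in control libraries. Exposed libraries were all lower (log2 fold change -0.85 ± 0.10, adjusted p = 1.3e-08), beside the lower ESR1 and PGR given above. HDAC1, a histone deacetylase, fell by 0.52 on the log2 scale, and TBL1XR1 fell by 0.23, which did not hold without exposed replicate 1, control replicate 1 or control replicate 3 (adjusted p = 0.16, 0.084 and 0.19).

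**Figure D5:**
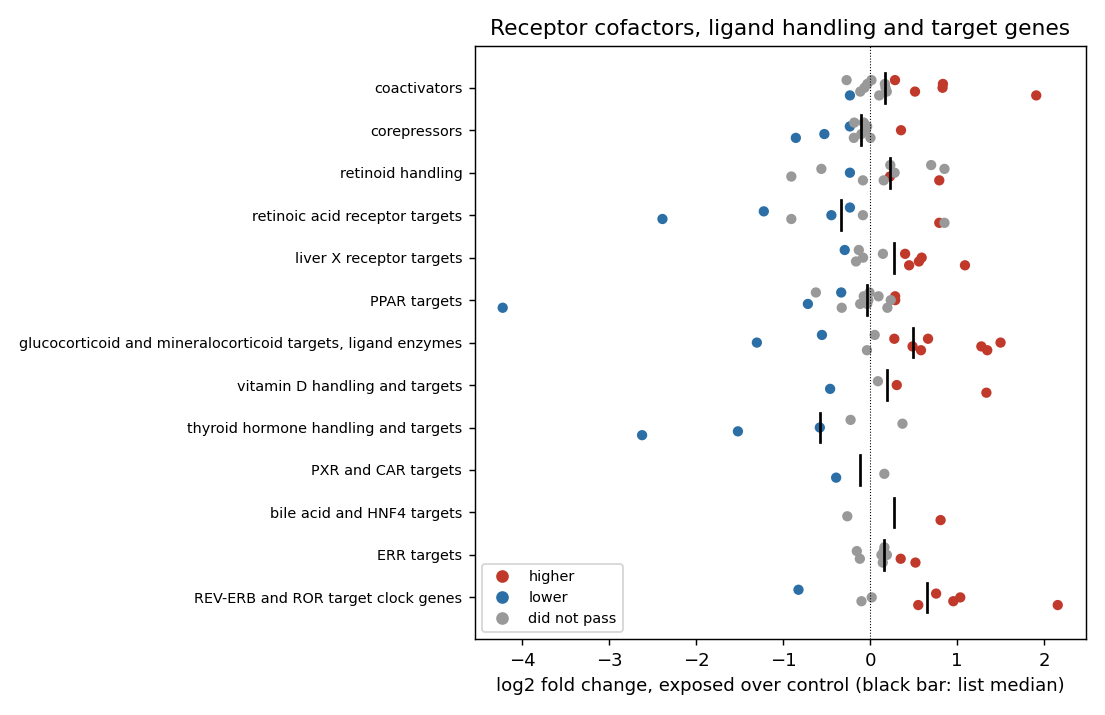
Log2 fold changes (exposed over control) of the tested genes in 13 lists of receptor cofactors, ligand-handling genes and target genes, 1 point per gene and a black bar at each list median. The medians run from -0.58 for thyroid hormone genes to 0.66 for clock genes.

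Genes that make, carry or degrade retinoic acid and genes that retinoic acid induces gave mixed results beside the opposite changes of RARA and RARG. Of 11 tested retinoid handling genes 2 were higher and 1 lower (median log2 fold change 0.23), a smaller part than the 43.9% called among all tested genes. DHRS3, a retinal reductase that is itself a retinoic acid target, averaged 58.6 ± 5.11 CPM in exposed cells and 33.8 ± 5.40 CPM in control cells (SD, n = 3 each), with a log2 fold change of 0.80 ± 0.10 (adjusted p = 7.2e-08, edgeR). RDH11 was higher by a log2 fold change of 0.23, with an adjusted p of 0.058 without exposed replicate 3. CRABP2, which carries retinoic acid to the nucleus, was lower by a log2 fold change of -0.23 and did not pass without exposed replicate 2 or 3 or control replicate 2 or 3 (adjusted p = 0.22, 0.10, 0.14 and 0.057). Of 8 tested retinoic acid receptor targets, 1 was higher and 4 lower (median -0.34), against 21.8% higher and 22.1% lower among all tested genes. DHRS3, CRABP2, CYP26A1, CYP26B1 and STRA6 are in both lists. TGM2, transglutaminase 2, had 0.294, 0.743 and 0.582 CPM in exposed libraries, against 2.52, 3.31 and 2.63 CPM in control libraries. All exposed libraries were lower, with a log2 fold change of -2.39 ± 0.31 (adjusted p = 1.5e-07). RARRES3 and RARRES1 were lower by log2 fold changes of -0.44 ± 0.13 and -1.22 ± 0.43. RARRES1 was low, at 0.37 ± 0.16 CPM in exposed cells and 0.86 ± 0.067 CPM in control cells. Without control replicate 3 the adjusted p of RARRES3 was 0.059, and that of RARRES1 was 0.058 to 0.11 without control replicate 1 or 3 or exposed replicate 1 or 3. CYP26A1, the most used retinoic acid target, averaged 0.703 ± 0.217 CPM in exposed cells and 0.749 ± 0.0974 CPM in control cells and did not pass.

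Liver X receptor targets were higher in 5 and lower in 1 of 10 tested genes, with a median log2 fold change of 0.28, beside the higher NR1H2. Of all tested genes 21.8% were higher and 22.1% lower. The lipid transfer and apolipoprotein genes PLTP and APOE rose by log2 fold changes of 1.09 ± 0.15 and 0.56 ± 0.08, the sterol exporter ABCG1 by 0.59 ± 0.12 and the desaturase SCD by 0.40 ± 0.09. SREBF1, which drives fatty acid synthesis, was lower (log2 fold change -0.29 ± 0.08, adjusted p = 0.0020, edgeR). ABCA1, a defining target, was low, at 0.950 ± 0.164 CPM in exposed cells and 1.04 ± 0.350 CPM in control cells, and did not pass.

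PPAR targets were split, with 2 higher and 3 lower of 15 tested and a median of -0.03, beside the higher PPARD, where 43.9% of all tested genes were called. The fatty acid transporter CD36 was lower by a log2 fold change of -0.71 ± 0.09, and ACADVL, which encodes an enzyme of fatty acid oxidation, was higher by 0.29 ± 0.08 (adjusted p = 0.0023, edgeR). PDK4, ANGPTL4, PLIN2 and CPT1A, much used as PPAR readouts, did not pass, with log2 fold changes of 0.24, -0.33, 0.20 and -0.02.

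Of 11 tested glucocorticoid and mineralocorticoid targets and ligand enzymes, 7 were higher and 2 lower (median log2 fold change 0.49). The shares among all tested genes were 21.8% higher and 22.1% lower. Of the receptors, NR3C2 was higher, while NR3C1, with the larger CPM in every library, did not pass. TSC22D3, the glucocorticoid-induced leucine zipper, averaged 129.7 ± 7.31 CPM in exposed cells and 51.0 ± 3.25 CPM in control cells (SD, n = 3 each), a log2 fold change of 1.35 ± 0.08 (adjusted p = 5.1e-15, edgeR). PER1, a clock gene, rose by a log2 fold change of 1.28 ± 0.09, SCNN1A, an epithelial sodium channel subunit, by 0.67 ± 0.08, and the phosphatase gene DUSP1 by 2.83-fold. FKBP5 and ZBTB16, which glucocorticoids also induce, were lower by log2 fold changes of -0.55 ± 0.08 and -1.30 ± 0.28. SGK1, also a listed target, was too low to test. Of the ligand enzyme genes, HSD11B1 had 0 counts in every library and HSD11B2 did not pass.

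Thyroid hormone genes were lower in 3 of 5 tested (median log2 fold change -0.58), and the other 2 did not pass, where 22.1% of all tested genes were lower. THRSP, a regulator of lipogenesis, had 10.9, 8.17 and 9.18 CPM in exposed libraries, against 53.4, 60.2 and 60.4 CPM in control libraries (log2 fold change -2.62 ± 0.11, adjusted p = 5.5e-19). HR, the hairless corepressor that binds thyroid hormone and vitamin D receptors, had 107, 94.0 and 90.9 CPM in exposed libraries, against 260.1, 304 and 273 CPM in control libraries (log2 fold change -1.52 ± 0.08, adjusted p = 4.8e-16, edgeR). Both genes were far lower in every exposed library, beside a higher THRA and a lower THRB. The transporter SLC16A10 had a log2 fold change of -0.58, and its adjusted p was 0.055 to 0.064 without exposed replicate 2 or control replicate 1 or 2. Of 4 tested vitamin D genes 3 were called, against 43.9% of all tested genes. The hydroxylase genes CYP27A1 and CYP2R1 were higher by log2 fold changes of 1.34 ± 0.12 and 0.31 ± 0.11, and the calcium channel gene TRPV6 was lower by a log2 fold change of -0.46 ± 0.08. CYP2R1 had an adjusted p of 0.10, 0.052 and 0.070 without control replicate 3, exposed replicate 2 or exposed replicate 3. CYP24A1, the defining vitamin D target, was too low to test.

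Of 8 clock genes listed with REV-ERB and ROR receptors, 5 were higher and 1 lower (list median 0.66), beside the higher NR1D2. Which of them these receptors control directly was not tested. The shares among all tested genes were 21.8% higher and 22.1% lower. DBP, a clock output factor that binds D-boxes, had 166, 159 and 169 CPM in exposed libraries, against 36.7, 43.8 and 30.1 CPM in control libraries. All exposed libraries were higher (log2 fold change 2.16 ± 0.10, adjusted p = 1.6e-16, edgeR's quasi-likelihood test). NFIL3, CRY2, PER2 and CRY1 were higher by log2 fold changes of 1.04 ± 0.12, 0.96 ± 0.08, 0.76 ± 0.11 and 0.55 ± 0.13. ARNTL, the BMAL1 gene, averaged 5.35 ± 1.30 CPM in exposed cells and 9.49 ± 0.808 CPM in control cells. Its log2 fold change was -0.82 ± 0.16 (adjusted p = 6.5e-05, edgeR). CLOCK and NPAS2 did not pass. The time of day at harvest is not stated in the labels.

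Estrogen-related receptor targets of mitochondrial metabolism were higher in 2 of 9 tested (median 0.16), among them the succinate dehydrogenase gene SDHB by a log2 fold change of 0.35 ± 0.08. The other 7 did not pass, where 43.9% of all tested genes were called. Few targets of the xenobiotic, bile acid and HNF4 receptors could be tested. Of 11 PXR and CAR targets 2 were tested, and CES2, a carboxylesterase gene, was lower by a log2 fold change of -0.39 ± 0.09, while CYP3A4 and CYP2B6 were too low. Of 12 bile acid and HNF4 targets 2 were tested. The coagulation factor gene F7 was higher by a log2 fold change of 0.81 ± 0.16, and SLC51A did not pass (log2 fold change -0.26). The listed genes APOA1, APOB, APOC3 and TTR were too low to test, as was HNF4A itself.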

How the data were processed

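RNA was extracted with TRIzol and sequenced on an Illumina NovaSeq after NEBNext Ultra preparation, per the labels' protocols. The authors deposited raw whole-number counts of reads for each gene, on GRCh38 per the submitters' processing notes. Aligner, counter, annotation release and strand setting: not given in the sources used here. Whether a read belongs to a gene or to its opposite-strand neighbour is thus unknown. The 58735 gene IDs all had the coordinates and lengths of GENCODE 29.

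R 4.3.3 and edgeR 4.0.16 were used for the tests. After filterByExpr (at least 10 counts in enough libraries and 15 in total) 17337 genes remained, libraries were scaled by TMM factors of 0.948 to 1.04, and 3 exposed were compared with 3 control libraries in a robust quasi-likelihood fit. A gene was called at a Benjamini-Hochberg adjusted p under 0.05. The SE is the log2 fold change divided by the square root of F. CPM use scaled library sizes, errors are SDs over 3 libraries, and levels per kilobase divide CPM by the table's gene length. The biological coefficient of variation was 9.61%. Library pairs within groups differed by more than counting noise (chi-square per degree of freedom 7.11 to 14.9). In simulated counts for this comparison over 17073 genes, 86.6% of 67 genes changed 1.5-fold, drawn from genes averaging at least 1 CPM, were recovered. Of 16873 unchanged genes 15 were called. The simulation changed a far smaller share of genes than was called here. It also gave all genes the same biological coefficient of variation, so its rates need not hold for these data.

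Members and lists were chosen with earlier results of these data known. Full values are given for members called with at least 1.5-fold and for the 3 of highest level per length, and from each list the text takes up to 4 genes of smallest adjusted p. A few of these are not reported here. Values in every library of other members were added after values were seen. So were CYP26A1, ABCA1, SREBF1, PDK4, ANGPTL4, PLIN2, CPT1A, FKBP5, ZBTB16, SGK1, HSD11B1, HSD11B2, ARNTL, CRY1, CLOCK, NPAS2, CYP24A1, CYP3A4, CYP2B6, APOA1, APOB, APOC3 and TTR. Alternatives were other size factors, filters and tools (DESeq2 1.42.0, limma 3.58.1), the replicate block, each library left out in turn, protein-coding genes alone, a test for changes above 1.5-fold and, added after seeing the data, a GC and length correction.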

Additional observations from a re-analysis of the deposited data

How the results depend on the processing

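Against a 1.5-fold change instead of no change, 2 receptor genes were higher and 2 lower (NR1D2, NR3C2, RARA and NR2F1), and 715 of all tested genes were higher and 783 lower; this test is stricter by construction. Leaving out each library gave 7 to 10 receptor genes higher and 6 to 7 lower, and 3164 to 3860 of all genes higher and 3098 to 3777 lower, with 2 libraries in one group. Under the other alternatives 8 to 10 receptor genes were higher and 6 to 7 lower, and no tested receptor gene changed direction with a call. NR2F6 passed as lower with no low-count filter, a stricter one, protein-coding genes alone and the GC and length correction (adjusted p = 0.044, 0.035, 0.040 and 0.012, edgeR). Same-numbered libraries did not deviate together (r = -0.074, -0.080 and 0.0055, and 0 of 6 libraries correlated best with their own number). No pairing by number was seen, but with 3 libraries per group the check cannot exclude it. With the replicate block, 8 receptor genes were higher and 6 lower, and 3359 of all genes were higher and 3420 lower; NR1H3, CRABP2 and TBL1XR1 did not pass there (adjusted p = 0.062, 0.094 and 0.057, edgeR). Tested receptors with few counts, such as NR4A3, ESRRG and NR2E3, had wide errors (SE 0.57, 0.59 and 0.55 on the log2 scale).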
